A study of Homo sapiens with 12 samples.

Results

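The 83 regions described here were open in MOLM13 and OCI-AML3 cells and carried no called peak in MV4-11 cells. They were defined by the peak calls themselves: peaks of all 12 libraries on chromosomes 1 to 22 were merged wherever they overlapped by 1 bp or more, which gave 328658 regions, and a region was taken when each of the 8 MOLM13 and OCI-AML3 libraries had a peak in it and none of the 4 MV4-11 libraries did. All 3 are established human acute myeloid leukemia (AML) lines, so each stands for 1 patient's leukemia. The MLL1 (KMT2A) gene is rearranged in MOLM13 and in MV4-11, and OCI-AML3 expresses a mutant NPM1. In each line, control cells were set beside cells given 500 nM VTP50469, a Menin inhibitor, for 16 h, with 2 libraries in each of the 6 groups. The labels do not say whether the 2 libraries of a group came from separate cultures, so every p-value below measures the spread between these libraries alone. All cells had been frozen before the nuclei were isolated. MV4-11 was grown in IMDM and the other lines in RPMI, both with 20% FBS, so line and medium cannot be told apart.

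ATAC-Seq uses the transposase Tn5 to place sequencing adapters in DNA that nucleosomes leave exposed, so that promoters and enhancers in use stand out as peaks of reads. Promoters rich in CpG dinucleotides are commonly open in many cell types, whereas enhancers tend to be open in only a few. A site that lacks a peak in 1 line can be closed there, can be deleted from its genome, or can be too weak to be called, and peak lists alone do not separate the last case from the first.

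The regions were a small part of what MOLM13 and OCI-AML3 shared. Among the 23422 regions with a peak in all 8 libraries of these lines, 0.354% had no MV4-11 peak, a share that the choice of the regions fixes. A peak in exactly 1, 2 or 3 MV4-11 libraries was present in 84, 125 and 285 of them, and 22845 (97.5%) were called in all 4. In the 84 regions just outside the rule, the single MV4-11 peak had a −log10 q between 1.32 and 12.2, with a median of 4.14, where the lowest value of any list stood for a q of 0.05. Just inside it, the weakest of the 8 peaks of a region had a −log10 q between 1.86 and 20.0, with a median of 3.81, against 7.27 for the regions called in all 12 libraries. With peaks of a −log10 q of at least 5 alone, the rule gave 51 regions, 25 of the 83 among them. A further 98 regions had a peak in 7 of the 8 libraries and none in MV4-11. MV4-11 was the line with the most peaks, 112922 to 141695 a library on these chromosomes, against 77753 to 100831 in MOLM13 and 67424 to 92554 in OCI-AML3. Sequencing totals are unknown. The start sites of all 13 housekeeping genes checked were open in every library, and 10 or 11 of 11 primary granule genes were open in the MV4-11 and MOLM13 libraries against 4 to 10 in those of OCI-AML3. Of 23 monocyte and granulocyte effector genes, 15 to 17 were open in MV4-11, 12 to 16 in MOLM13 and 13 to 16 in OCI-AML3. Markers of other lineages were open at 0 to 6 of 10 B cell genes, 5 to 8 of 15 T and NK cell genes and 0 or 1 of 11 erythroid and megakaryocyte genes.

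The 3 best supported of the 83 regions were promoters. Ranked by the weakest of their 8 peaks, the first 3 were the promoters of UGGT2, CPPED1 and the divergent pair TRIM32 and ASTN2, and IGF2BP3 and AHRR followed among the first 9. Regions in the bodies of PRSS16 and LOC100996671 ranked 4 and 8. The nearest MV4-11 peak lay 22098, 1129, 725, 801 and 605 bp from the 5 promoter regions, in the order named. At the TRIM32 and ASTN2 pair, IGF2BP3 and AHRR that peak lay within 1 kb of a start site, the reach of a promoter here. UGGT2 is a glucosyltransferase homolog of the endoplasmic reticulum, CPPED1 a phosphatase, TRIM32 an E3 ubiquitin ligase, IGF2BP3 an RNA-binding protein of fetal tissue and cancer, and AHRR the repressor of the aryl hydrocarbon receptor. Windows from 250 bases before to 50 bases after the start site, from RefSeq on GRCh38.p14, are printed 5′ to 3′ on the strand of the gene for 5 of these, to show the base content described next. Capitals mark each CpG dinucleotide.
UGGT2 (chr13:96053352-96053651, minus strand): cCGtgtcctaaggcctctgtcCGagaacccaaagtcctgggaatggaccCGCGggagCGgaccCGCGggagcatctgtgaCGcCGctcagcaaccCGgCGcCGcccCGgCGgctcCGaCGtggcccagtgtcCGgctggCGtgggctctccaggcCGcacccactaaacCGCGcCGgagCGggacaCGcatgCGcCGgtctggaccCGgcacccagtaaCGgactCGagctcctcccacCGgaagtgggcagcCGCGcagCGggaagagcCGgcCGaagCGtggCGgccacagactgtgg
CPPED1 (chr16:12803838-12804137, minus strand): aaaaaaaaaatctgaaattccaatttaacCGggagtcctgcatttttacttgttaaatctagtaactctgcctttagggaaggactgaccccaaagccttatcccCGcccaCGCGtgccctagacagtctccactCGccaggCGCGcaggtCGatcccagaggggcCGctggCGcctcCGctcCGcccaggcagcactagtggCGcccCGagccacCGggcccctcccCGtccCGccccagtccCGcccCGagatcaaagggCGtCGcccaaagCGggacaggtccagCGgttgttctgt
TRIM32 (chr9:116687055-116687354, plus strand): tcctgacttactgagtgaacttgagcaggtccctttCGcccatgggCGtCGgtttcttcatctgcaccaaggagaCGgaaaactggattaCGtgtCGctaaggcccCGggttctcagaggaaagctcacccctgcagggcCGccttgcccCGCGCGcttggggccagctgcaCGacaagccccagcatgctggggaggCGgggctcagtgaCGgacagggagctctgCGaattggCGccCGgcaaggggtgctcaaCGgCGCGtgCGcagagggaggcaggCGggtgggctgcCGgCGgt
IGF2BP3 (chr7:23470442-23470741, minus strand): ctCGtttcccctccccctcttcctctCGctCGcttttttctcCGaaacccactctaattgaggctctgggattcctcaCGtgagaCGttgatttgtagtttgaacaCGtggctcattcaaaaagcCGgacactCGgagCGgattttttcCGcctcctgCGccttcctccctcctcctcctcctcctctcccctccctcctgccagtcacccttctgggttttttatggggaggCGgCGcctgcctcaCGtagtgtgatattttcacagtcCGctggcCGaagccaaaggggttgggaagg
AHRR (chr5:321464-321763, plus strand): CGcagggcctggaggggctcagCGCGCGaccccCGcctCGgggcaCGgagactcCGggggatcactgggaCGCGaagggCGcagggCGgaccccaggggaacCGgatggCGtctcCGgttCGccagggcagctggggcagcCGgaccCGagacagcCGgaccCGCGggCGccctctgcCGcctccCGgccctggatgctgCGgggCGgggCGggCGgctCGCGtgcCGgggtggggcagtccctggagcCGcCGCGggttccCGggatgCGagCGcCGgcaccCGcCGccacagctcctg

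These 5 windows held 37, 23, 24, 17 and 40 CpG dinucleotides, in the order printed. All but that of CPPED1, of which 210 bases did, lay whole within the open region. The table had 38 windows for 28 of the promoter regions and none for TEAD1, GASK1B-AS1, CRIM1, EPHX2 and SAMD12. The median window held 26 CpG, from 4 at LOC124902886 to 52 at FGFR2, a fibroblast growth factor receptor, whereas the 33558 windows of all promoters had a median of 14. The ratio of CpG to the number that the C and G content alone would give was 0.806 in the median against 0.578 for all promoters. Windows with a ratio of 0.6 or more, called CpG-rich here, made up 86.8% of the 38, 48.9% of all promoters and 85.3% of those open in all 12 libraries. The 5 windows below that ratio were at BCAR1, APOLD1, ZNF491, LOC124902886 and LOC128966684, with 4 to 13 CpG each. Those at BCAR1, APOLD1 and LOC124902886 lay outside the open region. The other BCAR1 window, whole within it, held 37 CpG at a ratio of 0.931. Windows at regions open in the other lines and not in MOLM13 were CpG-rich in 73.7% of 179, and those not in OCI-AML3 in 39.0% of 246. No test was made of these shares.

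Letters known as binding motifs were counted in the same windows on both strands. The GC box (GGGCGG) was in 29 of the 38 windows (76.3%), against 45.0% of all promoters and 71.1% of those open in all 12 libraries. A CTCF core (AGNGGGCGC, which can overlap a GC box) was in 5 (13.2%), against 4.28% of all promoters and 6.88% of those open in all 12 libraries. An E-box (CACGTG) was in 6 (15.8% against 7.15% and 10.0%, in the same order), the NRF1 letters (GCGCANGCG) were in 6 (15.8% against 7.44% and 15%) and the PU.1 letters (GAGGAAG) in 9 (23.7% against 13.6% and 14.2%). At 5 to 9 windows each, these shares rest on few matches. The letters of AP-1 (TGANTCA), STAT (TTCNNGAA), MYB (AACNGTT), YY1 (AANATGGCG) and the cAMP response element (TGACGTCA) were in none of the 38, against 7.68%, 7.74%, 3.52%, 3.19% and 1.86% of all promoters. The shares in promoters open in all 12 libraries were 4.47%, 5.95%, 2.38%, 6.84% and 3.42%. With 38 windows such shares give few matches, so an empty count carries little information. The CCAAT box was in 10 windows (26.3% against 34.4% of all promoters and 35.2% of those open in all 12 libraries). The MEIS letters (TGACAG) were in 7 (18.4% against 15.8% and 12.7%). The RUNX letters (TGTGGT) were in 3 (7.89% against 13.1% and 9.16%) and the TEAD letters (GGAATG) also in 3 (7.89% against 14.1% and 10.3%). The GATA letters (AGATAA), the C/EBP letters (TTGCNNAA) and the IRF letters (GAAANNGAA) were in 2 windows each, and the letters of HOX with PBX (TGATTTAT) in 1. Some windows overlap or belong to the same region, so they are not independent, and a match describes letters, not binding. Some windows also lay outside the open region, with a start site within 1 kb of it. Among these were windows with the PU.1 letters at AHRR, LOC112268276, LOC124902886, BCAR1 and LOC105372923. The 2 windows with the C/EBP letters and the 1 with those of HOX with PBX lay outside as well.

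Of the 83 regions, 33 (39.8%) lay within 1 kb of a start site, 28 (33.7%) elsewhere in a gene and 22 (26.5%) between genes. The promoter regions belonged to protein-coding genes in 27 cases and to lncRNA genes alone in 6, and the gene body regions lay in protein-coding genes in 19 of 28 cases. Regions away from promoters were a median of 23.8 kb from the nearest start site, from 1.07 kb in DACH1, a transcription factor gene, to 465 kb from ARRDC3. The promoter share was 45.1% for regions open in all 12 libraries and 22.6% for the 84 regions with a peak in 1 MV4-11 library. It was 23.5% for the 622 regions open in the other lines and not in MOLM13 and 7.42% for the 3179 not in OCI-AML3. The regions missing from MV4-11 were thus fewer than those missing from either other line and lay at promoters more often in these lists, a difference that was not tested. The 83, 622 and 3179 were taken from 23422, 26617 and 36367 regions called in all libraries of the other lines. MV4-11 also had the most called peaks, and how far peak number sets these counts was not tested. Of the 83 regions, 3 (3.61%) had a tRNA gene within 1 kb, against 0.622% of those open in all 12 libraries. Their median width was 618 bp (227 to 1691 bp), against 758 bp.

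**Figure D1:**
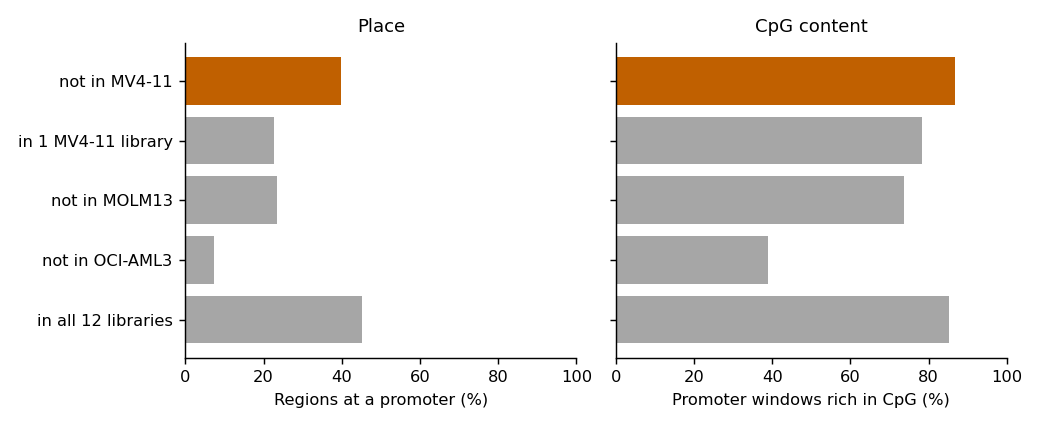
Share of regions within 1 kb of a start site (left, %) and share of promoter windows with a CpG ratio of 0.6 or more (right, %), for the 83 regions without an MV4-11 peak (orange) and 4 other sets of regions (grey). The 83 regions stand at 39.8% and 86.8%, nearest to the regions open in all 12 libraries at 45.1% and 85.3%.

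The rule asks whether neighbouring regions ran together in a way that a deletion in MV4-11 would give. They did not form runs. In the order of all 23422 regions, 79 of the 83 stood alone between regions that had a peak in at least 1 MV4-11 library, and 70 had neighbours on both sides that were called in all 4. There were 2 runs of 2 and none of 3 or more. The distance between MV4-11 peaks on either side of a region had a median of 18.3 kb, from 2.06 kb at GASK1B-AS1 to 545 kb at PTPRM, against a median of 5.84 kb for all such stretches. A loss of both copies that took such a region could span no more than that stretch. Longer stretches hold more regions by their length alone, so the difference from 5.84 kb is in part fixed by the choice of the regions. Stretches of over 100 kb held 14 of the regions, and the genome had 2679 such stretches in MV4-11. In 12 of the 82 stretches the region was the only one called in any of the 8 libraries. The nearest MV4-11 peak was a median of 4621 bp away, under 500 bp away for 12 regions and over 10 kb away for 21. A deletion that holds a single region, or one of 1 copy only, cannot be told apart from a closed site in these lists.

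Only 1 stretch held 2 of the regions. It ran for 43.3 kb on chromosome 16 around OR1F1, an olfactory receptor gene in a cluster of tRNA genes. The regions were chr16:3182551-3183484, with the tRNA genes TRP-AGG2-7 and TRP-TGG3-4 within 1 kb, and chr16:3188800-3189669 at the OR1F1 promoter, with TRP-TGG3-5 and TRP-AGG2-8, and they lay 5.32 kb apart. The fold, that is the reads at the peak summit over the local background of the same library, was 7.02 and 10.2 in the MOLM13 controls and 4.54 and 6.30 in the treated libraries at the first region. In OCI-AML3 it was 8.90 and 4.67 in the controls and 6.45 and 5.13 in the treated libraries. At the OR1F1 promoter the 4 MOLM13 libraries gave 6.90, 8.45, 6.20 and 5.41 and the 4 OCI-AML3 libraries 5.98, 4.16, 4.90 and 4.99, in the order control, control, treated, treated, so the ranges of both lines overlapped at both regions. Another tRNA gene, TRQ-CTG5-1, was beside a region on chromosome 6 (chr6:27295202-27295630), 43.1 kb from the region in PRSS16, a serine protease gene of the thymus, with 4 MV4-11 peaks between them. AHRR held 2 regions, at its promoter (chr5:321277-322243) and 21.5 kb away in its body (chr5:343788-344366), and 7 MV4-11 peaks lay between these.

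**Figure D2:**
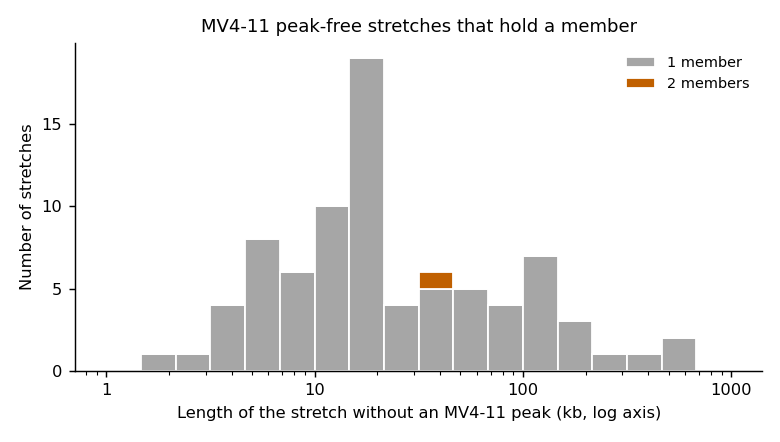
Number of stretches without an MV4-11 peak (vertical axis) by their length in kb (horizontal log axis), for the 82 stretches that hold at least 1 of the 83 regions. Only 1 stretch, of 43.3 kb, holds 2 regions, and the median length is 18.3 kb.

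None of the 19 gene lists chosen for leukemia and for deletions had one of the regions in its loci, taken as gene bodies with 5 kb on each side. The loci of 22 MLL1 and MLL fusion targets held 68 regions called in all 8 libraries, of which 65 were called in all 12 and the other 3 in some MV4-11 libraries. The 23 myeloid transcription factor genes held 46, the 25 cytokine and growth factor receptor genes found 42, and the HOXA and HOXB genes 10. The lists that bear on deletions were as empty: tumor suppressor loci held 45 regions, all called in all 12 libraries, common fragile site genes 58, also all called, and common germline deletion loci 3, of which 2 were. Over all lists the loci held 480 regions called in all 8 libraries, beside which the 0.354% chosen among all such regions has to be read. By chromosome the 83 regions were spread over 20 of the 22, with none on chromosomes 21 and 22. The most, 10, were on chromosome 6, and the highest share of the regions open in all 8 libraries was 0.815% on chromosome 13, with 4.

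In strength the regions were modest. The fold of a region ran from 3.03 to 17.8 over all its libraries, resting on 5 to 72 reads at the summit. The median over the 83 of each region's median fold was 6.57 against 9.37 for regions open in all 12 libraries. The first value was taken over the 8 MOLM13 and OCI-AML3 libraries and the second over all 12, MV4-11 included, so they are not strictly alike. Within a region the highest fold of the 8 libraries was 1.93 times the lowest in the median, from 1.29 to 3.79 times. At the UGGT2 promoter (chr13:96052666-96053864) the MOLM13 controls gave 11.7 and 9.81 and the treated libraries 11.6 and 9.83, and the OCI-AML3 controls gave 12.1 and 10.2 and the treated libraries 14.8 and 12.1. At the CPPED1 promoter (chr16:12803256-12804047) they were 11.2 and 12.6, 12 and 10.7, 10.5 and 9.03, and 11.0 and 10.7, in the same order. The ranges of both lines overlapped at both promoters. At the TRIM32 and ASTN2 promoter (chr9:116686629-116687517) the 8 values lay between 9.36 and 12.7. IGF2BP3 (chr7:23470385-23470896) and AHRR were called at lower folds, 4.92 to 6.84 and 5.06 to 6.51, on 28 to 40 and 24 to 40 summit reads.

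The other promoters among the 15 best supported belonged to LINC02851, TEAD1, a transcription factor that works with YAP, PTPRM, a receptor tyrosine phosphatase, RERG, a small GTPase of the RAS superfamily, NINL, a centrosomal protein, FAM78B, APOLD1, GASK1B-AS1, LOC128966684 and LOC124903833. The PTPRM promoter (chr18:7566616-7567720) was the only region called in all 8 libraries in the longest stretch, where 8 others were called in some of them. It lay 59591 bp from the nearest MV4-11 peak, and its fold was between 8.59 and 10.1 in MOLM13 and between 6.11 and 10.2 in OCI-AML3. Weaker promoters included SLIT2, a secreted guidance ligand, at 4.16 to 6.76, and FGFR2 at 4.28 to 10.1. The 10 best supported regions elsewhere lay in PRSS16, LOC100996671, KIAA1614 and LINC02941 and, between genes, nearest to LOC124906224, ZNF287, ZFAND2A-DT, LOC107984223, ZNF823 and LINC02300. The region in PRSS16 had folds between 7.73 and 12.9, with 7.73 and 8.91 in the MOLM13 controls and 12 and 12.9 in the treated libraries, and 9.53 and 12.5 in the OCI-AML3 controls and 11.3 and 7.91 in the treated ones. Neither shift with VTP50469 passed the test (0.86, SE 0.44, limma adjusted p = 0.998 in MOLM13 and −0.17, SE 0.44, limma adjusted p = 0.974 in OCI-AML3, on the score scale explained next).

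**Figure D3:**
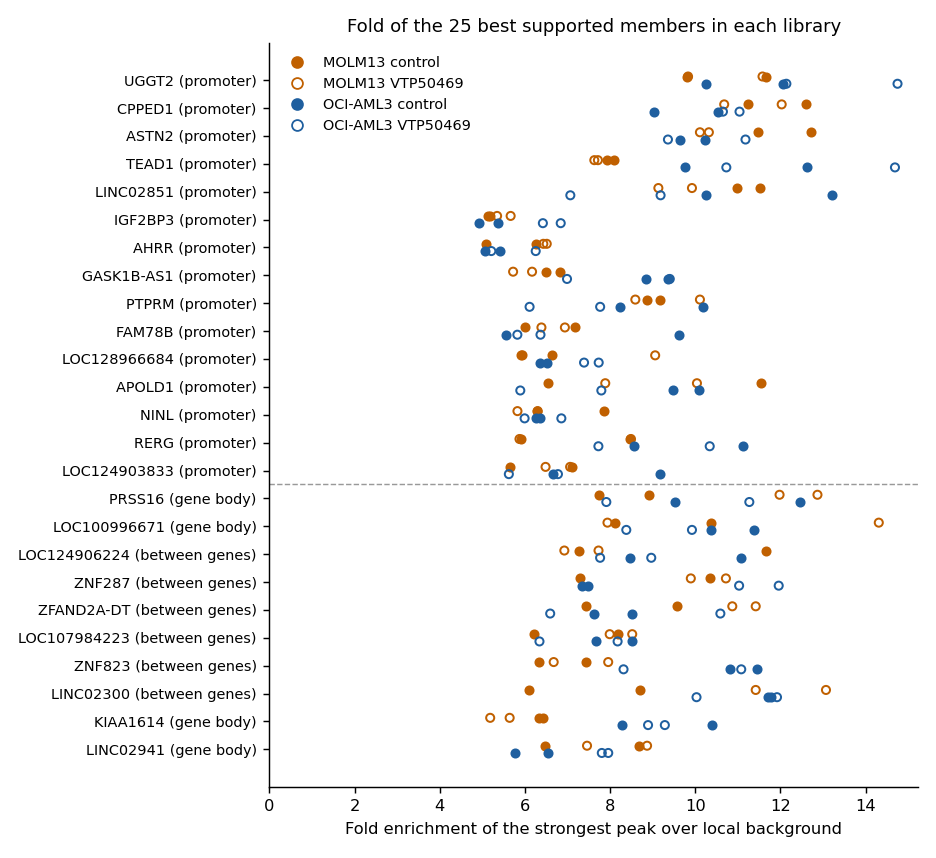
Fold enrichment (horizontal axis) of the 25 best supported regions in each of the 8 MOLM13 (orange) and OCI-AML3 (blue) libraries, filled for control and open for VTP50469; the 15 promoters stand above the dashed line and 10 other regions below it. Values overlap between the lines at most regions, with TEAD1, GASK1B-AS1, ZNF823 and KIAA1614 higher in all OCI-AML3 libraries.

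The choice of the regions did not set OCI-AML3 against MOLM13, and these lines were compared next. The comparison is not independent of the choice, which required a called peak in every library of both lines. It also left out regions with a peak in MV4-11, which shared 36367 regions called in all libraries with MOLM13 and 26617 with OCI-AML3. What this does to the difference between the lines was not tested. The folds were ranked within each library over the 23422 regions and turned into normal scores, so a score difference of 1 is 1 SD of the distribution over regions, and tested with limma. Of the 83 regions, 15 passed an adjusted p of 0.05 (limma, Benjamini-Hochberg over all 23422), 13 of them higher in OCI-AML3 and 2 higher in MOLM13. Over all 23422 regions, 6.87% passed, 3.76% higher in OCI-AML3 and 3.1% lower. The median score difference, OCI-AML3 minus MOLM13, was 0.41 over the 83 regions and −0.00329 over all regions, and 56 of the 83 had a value above 0. All 4 OCI-AML3 scores lay above all 4 MOLM13 scores in 17 of the regions and below in 1, against 7.63% and 6.25% of all regions tested. For the folds themselves, not ranked within a library, these counts were 12 and 4, against 4.01% and 8.81% of all regions. On the log2 of the fold the number that passed fell to 8, 6 of them higher in OCI-AML3, against 5.53% of all regions, and the split over all regions turned from 881 higher and 727 lower to 416 and 879, with the median of all regions then at −0.09. On the log2 of the summit reads worked out from the lists, 39 of the 83 passed, 35 higher in OCI-AML3 and 4 lower, against 26.3% of the 23410 regions with such reads. With 1 library left out, 5 to 10 of the 83 passed, against 2.85% to 4.76% of all regions, and fewer than 10 without any of the 4 MOLM13 libraries, OCI-AML3 control 2 or OCI-AML3 VTP50469 1.

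The same leaning was present in regions that a part of the MV4-11 libraries lacked. The share called between OCI-AML3 and MOLM13 was 19% of the 84 regions with a peak in 1 MV4-11 library (13 higher in OCI-AML3 and 3 lower), 13.6% of the 125 with 2, 11.2% of the 285 with 3 and 6.69% of the 22845 with 4. Median score differences were 0.28, 0.20, 0.12 and −0.01 in that order. The regions without an MV4-11 peak, at 18.1% and 0.41, had values close to those of the regions with 1 peak, and no test of this order was made.

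**Figure D4:**
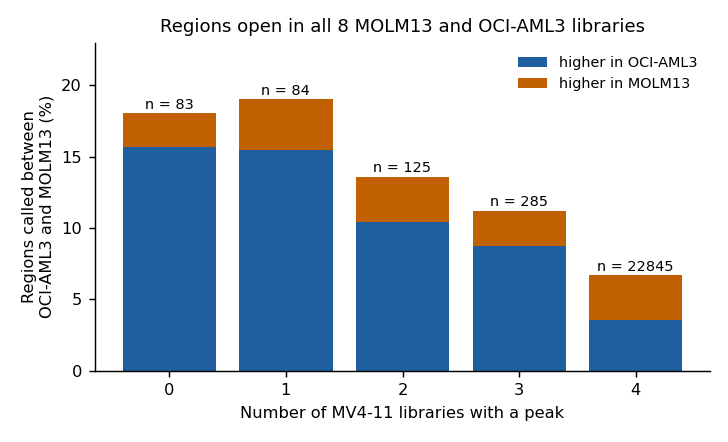
Share of regions (vertical axis, %) called higher in OCI-AML3 (blue) or in MOLM13 (orange) at an adjusted p under 0.05, by the number of MV4-11 libraries with a peak (horizontal axis), with the number of regions above each bar. The 83 regions with none stand at 18.1% and the 22845 with 4 at 6.69%.

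At 4 of the 15 regions the difference held under each of the 13 other settings tried. The region farthest toward OCI-AML3 lay between genes on chromosome 2 (chr2:145692926-145693467), 61.1 kb from LOC105373664. Its fold was 4.88 and 6.74 in the MOLM13 controls and 6.49 and 7.26 in the treated libraries, and 17.0 and 14.8 in the OCI-AML3 controls and 13.2 and 14.1 in the treated ones, so the lines did not overlap, with a score difference of 2.65 (SE 0.33, limma adjusted p = 0.00145). Next came the promoter of EPHX2, the soluble epoxide hydrolase, with 4.75, 4.69, 6.94 and 8.31 in MOLM13 and 11.4, 17.8, 11.2 and 9.34 in OCI-AML3, each as 2 controls and 2 treated libraries. Its difference was 2.19 (SE 0.33, limma adjusted p = 0.00288). The region near LINC02404 (chr12:91778958-91779253) had 8.66, 9.44, 5.64 and 3.96 in MOLM13 and 13.9, 12.7, 11.8 and 10.4 in OCI-AML3, a difference of 1.89 (SE 0.35, limma adjusted p = 0.00777). The promoter of SLC2A8 (chr9:127396550-127397459), a facilitative sugar transporter, was the other way: 15.2, 13.2, 12.9 and 16.6 in MOLM13 against 4.85, 6.26, 6.53 and 5.83 in OCI-AML3, on 53 to 72 and 10 to 13 summit reads, with a difference of −2.40 (SE 0.32, limma adjusted p = 0.00163). At these 4 regions the folds of both lines did not overlap, while MV4-11 had no peak in the region. At SLC2A8 an MV4-11 peak lay 550 bp away. Whether the peaks of both lines shared a summit was not tested.

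The other regions higher in OCI-AML3 were the promoters of DZIP1, a ciliary protein, HS3ST1, a heparan sulfate sulfotransferase, PLPPR4 and TEAD1, regions in KIAA1614, ADGRV1, an adhesion receptor gene, and HIVEP2, a zinc finger factor, and regions nearest to LINC00347, ZNF823 and POM121L12. Their score differences ran from 1.17 to 1.62, with limma adjusted p between 0.016 and 0.0449. At TEAD1 (chr11:12673900-12674853) the MOLM13 folds were 7.93, 8.09, 7.71 and 7.63 and the OCI-AML3 folds 9.75, 12.6, 14.7 and 10.7, a difference of 1.32 (SE 0.32, limma adjusted p = 0.0267). At DZIP1 (chr13:95643718-95644945) they were 6.21, 4.36, 4.88 and 5.33 against 7.09, 8.98, 9.05 and 8.83. HOOK2 (chr19:12765832-12766448), which codes for a microtubule linker, held the other region higher in MOLM13, at 9.25, 11.1, 9.30 and 8.87 against 4.52, 5.28, 6.54 and 7.59. Each of these 11 lost its call in 3 to 10 of the 13 other settings, mostly when 1 library was left out, and none changed direction. The number of gene copies in each line, which would scale the reads over a site, is not in the lists, and its part in these differences was not tested.

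**Figure D5:**
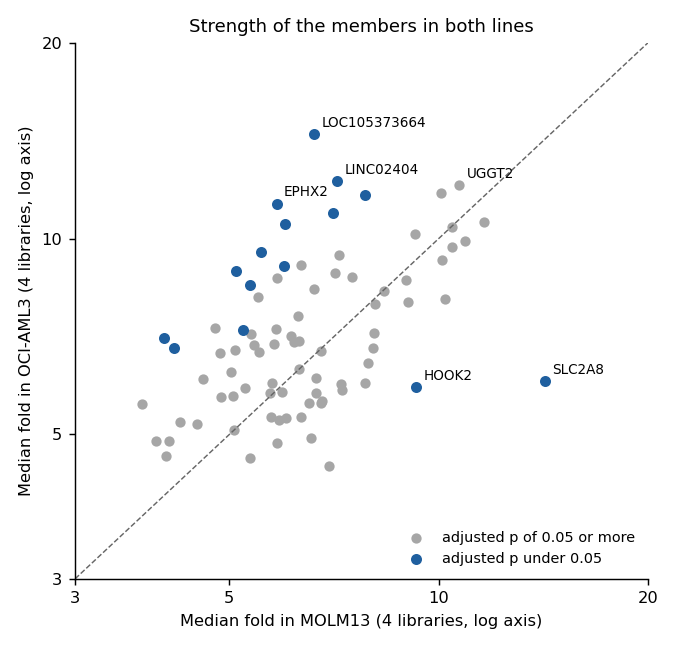
Median fold of each of the 83 regions in the 4 MOLM13 libraries (horizontal log axis) and the 4 OCI-AML3 libraries (vertical log axis), blue where the difference between the lines had an adjusted p under 0.05 and with a dashed line of equal fold. Of the 15 blue points, 13 lie above the line, LOC105373664 and EPHX2 among them, and SLC2A8 and HOOK2 lie below it.

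VTP50469 did not move any of the 83 regions past the threshold. All regions tested had a called peak in every control and every treated library of both lines. A site whose peak was gained or lost with the compound could therefore not enter the test. In limma, 0 of all 23422 regions passed in MOLM13, in OCI-AML3, over both lines or in the difference between the lines' shifts, so 0% was called in each. At an unadjusted p under 0.05 there were 13 of the 83 in MOLM13 (4.88% of all regions), 6 in OCI-AML3 (6.52%), 8 over both lines (5.81%) and 11 for the difference of the shifts (5.63%). The score was higher with VTP50469 in 36 of the 83 in MOLM13 and in 38 in OCI-AML3, with medians of −0.12 and −0.10. With 2 libraries a group the median SE of a shift within a line was 0.465 on the score scale. In simulated scores the MOLM13 comparison called 60% of planted shifts of 2 and 100% of those of 4, with 10 false calls. A smaller shift could thus be missed. The smallest p-values were those of the region near LINC02404 in MOLM13, with folds of 8.66 and 9.44 in the controls and 5.64 and 3.96 in the treated libraries (shift −1.92, SE 0.50, limma adjusted p = 0.931), and of a region in LOC105371460 in OCI-AML3 (shift 1.87, SE 0.51, limma adjusted p = 0.606). In MOLM13 they were followed by LOC107984462 (−1.50) and SCRG1 (−1.37) on the lower side and by LINC01852 (1.33), POM121L12 (1.37) and LINC02300 (1.16) on the higher side.

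In OCI-AML3 the region near ZNF287 had a shift of 1.35, from 7.34 and 7.48 to 11.0 and 12, and that in HOOK2 1.25, and the lowest were LOC124902544 (−1.19), EPHX2 (−0.88) and LINC02851 (−0.79). Over both lines the region near LINC02404 stood lowest at −1.14 (SE 0.35, limma adjusted p = 0.821), with DOCK4 (−0.93) and LOC124901355 (−0.85), and ZNF287 highest at 0.79 (SE 0.30, limma adjusted p = 0.836), with LOC105374294 (0.72) and DACH1 (0.71). The shifts of the lines differed most at LOC105371460 (OCI-AML3 minus MOLM13, 2.50, SE 0.72, limma adjusted p = 0.792), SCRG1 (2.08) and GEM (2.05) in 1 direction and at EPHX2 (−2.03), LOC105371347 (−1.73) and LINC01852 (−1.64) in the other, and none of these passed.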

How the data were processed

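Bulk ATAC-Seq libraries of MOLM13, MV4-11 and OCI-AML3 were analyzed from the peak lists that the authors deposited, 1 list a library. Per the labels, reads had been processed with MACS2 2.1.0, Bowtie 1.1.2, Trimmomatic 0.33, bcl2fastq 2.17 and deepTools, and the build was hg38. The study's supplement names a different aligner. Peaks had been called in each library separately. Handling of duplicates and the shift of Tn5 ends are not given in the sources used here. The deposited ratio of a peak is its fold enrichment, taken at the summit against background reads nearby. Its deposited −log10 p and q refer to the same point, and the deposited score is 10 times the latter, cut to a whole number. The authors had not normalized values between libraries.

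Of 1200433 peaks, 27277 outside chromosomes 1 to 22 were not used. Where a library had several peaks in a merged region, the strongest was taken. Genes, and promoter windows from 250 bases before to 50 after a start, came from RefSeq (GRCh38.p14). Start sites without a window were taken from gene ends, with the strand that GENCODE gives the same symbol (5071 of 38796 sites). A promoter was 1 kb on either side of a start site. Summit reads were worked out as the integer that gave both the fold, with 1 read added, and the Poisson p (tolerance 0.001), and 99.949% of the peaks tested had one. Such reads are not independent molecules.

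Normal scores of the fold were fitted with limma 3.58.1 in R 4.3.3 (moderated, two-sided, 4 groups of 2 libraries, Benjamini-Hochberg over 23422 regions). The MV4-11 libraries, which have no value at the regions, did not enter. The study's differential test on reads could not be run on peak lists. The test was also run on scores simulated from the means and spread of the real ones, with and without planted shifts. Python 3.11.15 with pandas 2.3.3 and scipy 1.17.1 did the rest. Regions were named for the promoter within 1 kb, else the gene they lie in, else the nearest start site. The text names the 15 promoters and 10 other regions with the highest weakest peak, genes with 2 regions, and the 3 regions with the smallest p in each direction of each comparison. The members, gene lists and motifs were chosen with earlier results of these data known, and SLIT2, FGFR2, DACH1 and ARRDC3 are named as examples chosen after their values were seen. Sequence of regions away from promoters is not printed because the genome at hand was of another build.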

Additional observations from a re-analysis of the deposited data

How the results depend on the processing

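The number of regions open in MOLM13 and OCI-AML3 and not in MV4-11 depends on the threshold for a peak. It was 83 with the authors' peaks and 51 when a peak needed a −log10 q of at least 5 in all libraries, 25 of the 83 remaining. With that threshold in the 8 MOLM13 and OCI-AML3 libraries alone it was 25, and the share at promoters was then 60%. An overlap of 50 bp gave 82 regions and a margin of 500 bp without an MV4-11 peak gave 71. Leaving out 1 library gave between 90 and 113 regions, the most without MV4-11 control replicate 2. The promoter share lay between 38.5% and 43.4% with promoters of 500 bp and 2 kb. For OCI-AML3 against MOLM13, 1608 of all regions passed, 6155 on recovered reads, and between 667 and 1115 without 1 library. Of the 83 regions, 15 passed, 8 on the log2 fold, 14 after quantile normalization, 39 on recovered reads (35 higher in OCI-AML3 and 4 lower), and between 5 and 10 without 1 library, fewest without MOLM13 control replicate 2 or MOLM13 VTP50469 replicate 2. No call changed direction. For VTP50469 the count was 0 under all alternatives run. With the replicate number as a block in each line, the paired fit called 1533 regions for OCI-AML3 against MOLM13, 12 of the 83 among them, and 0 in each VTP50469 comparison. The deviations of same-numbered libraries correlated at 0.0468 in MOLM13 and 0.0096 in OCI-AML3. Such low values do not tell whether same-numbered libraries came from the same culture or day. Depth limits what a missing peak means: called peaks in the 83 regions rested on as few as 5 reads, and a region without a call need not be closed.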
